A study of Danio rerio with 3 samples.

Results

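The comparison described here sets both banana diets together against the control feed in the intestine of adult zebrafish (Danio rerio). For each gene, the shift is the mean of log2(scaled FPKM + 1) of the 2 banana libraries minus that of the control library, and the gap is the difference between the banana libraries on the same scale, without its sign. FPKM is a read level that allows for transcript length and library size. Of 32519 genes in the files, 14061 had a usable value in every library and 1 FPKM or more in at least 1 library, and all of these were compared. A gene was called shared when its shift was 1 or more in size, was larger than its gap, and the 95% intervals of both banana libraries lay on the same side of the control's interval. By this rule 323 genes were higher in both banana libraries and 108 were lower.

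Poly(A) RNA from intestine was sequenced from both ends (150 bases each), and each of 3 diets has 1 library. All fish were healthy adults of 6 to 9 months, kept at 14 hours of light and 10 of dark, fed at 4% of body weight a day in 3 meals for 8 weeks, and sampled on day 56 after 24 hours without food. The anaesthetic MS-222 is recorded at 0.4% for all 3 groups. The control group ate Tetramin, a commercial fish feed. The Cavendish group ate granules of 50% Cavendish banana pulp and 50% Tetramin, and the Fe'i group ate granules of 50% Fe'i banana pulp and 50% Tetramin. Cavendish is the pale dessert banana and Fe'i bananas have orange pulp rich in carotenoids, the plant pigments from which animals make vitamin A. Both banana feeds thus held less Tetramin than the control feed and had been made into granules by freeze-drying, so banana, less commercial feed and the making of the granules cannot be told apart. The sources used here do not give the strain, the number and sex of the fish behind a library, or the part of the intestine taken.

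The single control library enters every shift, so an unusual control value moves both banana ratios together and looks like a shared difference. No difference has a replicate check and no p-value was computed. The number after ± is the half-width of the deposited 95% interval on the scaled level, which covers counting and read assignment within a library and not differences between fish. In whole-tissue RNA, fewer cells of a type and less RNA per cell cannot be told apart.

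Enterocytes, the absorbing cells of the gut lining, take up fatty acids and monoglycerides, rebuild them into triglyceride and pack it with apolipoproteins into chylomicrons, particles that leave through the secretory pathway. They also split provitamin A carotenoids into retinal, which is stored as retinyl ester or oxidised to retinoic acid, a ligand of nuclear receptors. Bile acids made in the liver are taken back up by enterocytes and signal through other nuclear receptors that adjust their own transport and synthesis.

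Defining enterocyte markers were present in each library. fabp2, the intestinal fatty acid-binding protein, stood at 4946 scaled FPKM with control feed, 2287 with Cavendish and 3045 with Fe'i, and triplets of values keep this order throughout. vil1, the brush border protein villin, was at 523, 434 and 425, and cdh17, an intestinal cadherin, at 384, 319 and 285. These 3 markers do not stand for the enterocyte list as a whole (25 genes). It had a median shift of -0.15 and a median gap of 0.35, with 9 positive and 16 negative shifts, from -0.91 to 1.08. In it 2 genes were called higher, tmigd1 and epcam, and 0 lower. Both calls were lost under all 3 other scalings. Depth was estimated from the deposited intervals and not from read counts. On this estimate the Cavendish library was 1.27 times as deep as the control and the Fe'i library 0.816 times. The median gene had an estimated 147, 180 and 115 fragments behind it. Exocrine pancreas markers took 6.69%, 15.7% and 5.72% of all FPKM in these libraries, and liver markers 1.24%, 1.81% and 3.81%, so neighbouring-organ transcripts were not level between the libraries.

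Across all genes the banana libraries differed from each other about as much as their mean differed from the control. The median size of the shift was 0.24 and the median gap 0.28, and the shift exceeded the gap in 6068 genes (43.2%). The 323 higher calls were 2.3% of the genes compared and the 108 lower calls 0.768%, 3.07% together. Between the banana libraries themselves, 1225 genes (8.71%) had a gap of 1 or more with intervals apart, 631 higher with Cavendish and 594 higher with Fe'i. That rule is looser than the shared one, since it compares 2 libraries and sets no gap as a limit. The shares of 3.07% and 8.71% are the ones to set beside the list counts below. The lists were chosen with earlier results of these data known, so a higher share in a list is a description only. In a short list, 0 or 1 shared call is near 3.07%.

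The median gap was 0.37 among the lower calls and 0.60 among the higher calls. The call rule used the gap, and the lower calls lay at lower levels in the banana libraries, where adding 1 to the FPKM narrows gaps, so these values are a description only. Scaling changed the balance of directions: 74.9% of calls were higher with median-ratio scaling, and 50.4% (205 higher and 202 lower) when each library's FPKM were rescaled to the same sum, which moved the median shift of all genes from 0.03 to -0.13. All 108 lower calls were kept under that scaling, and 205 of the 323 higher calls.

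**Figure D1:**
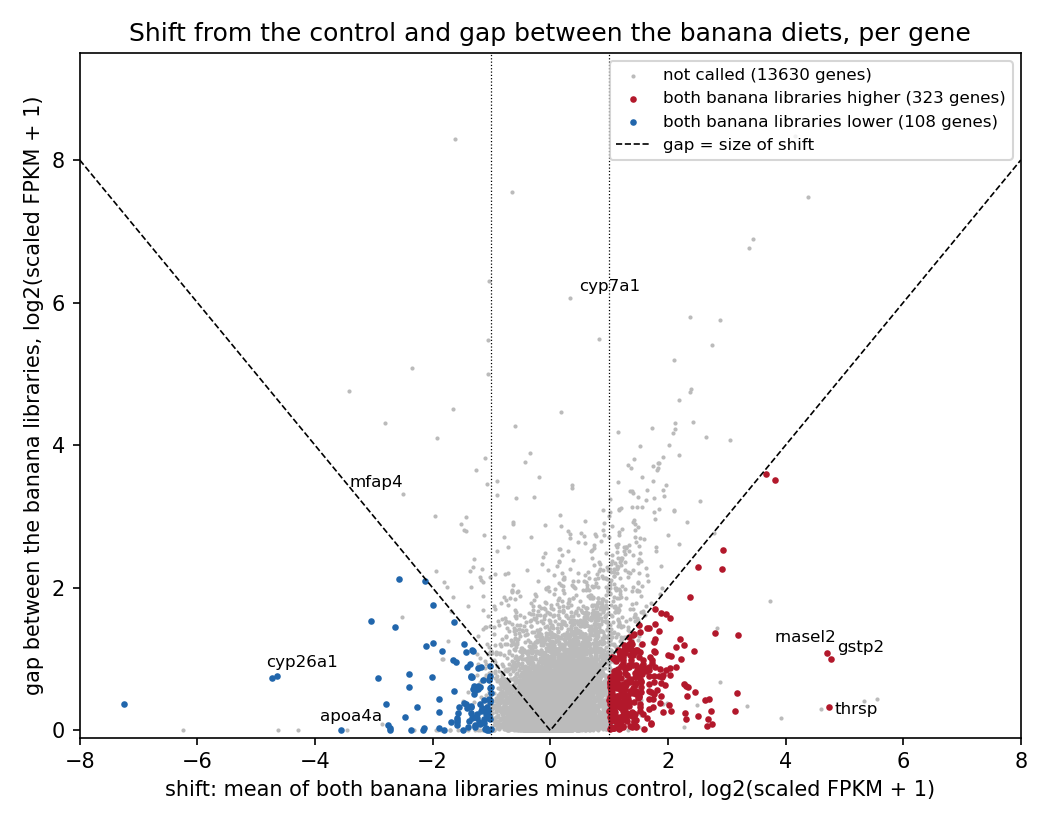
Shift (horizontal, mean of both banana libraries minus control) against gap (vertical, between the banana libraries) for 14061 genes, both in log2(scaled FPKM + 1). Red and blue points are the 323 higher and 108 lower shared calls, which lie under the dashed line where gap equals the size of the shift; cyp7a1 and mfap4 lie above it.

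Among lower calls with a gene name, the most negative shift was that of cyp26a1, gene ENSDARG00000033999 on chromosome 12 (GRCz11, 8954761 to 8958353), a cytochrome P450 that breaks down retinoic acid and whose transcription retinoic acid induces. It stood at 74.0 ± 4.37 scaled FPKM with control feed, 1.196 ± 0.401 with Cavendish and 2.65 ± 0.736 with Fe'i. The control was far above both banana libraries, which were 34.2-fold and 20.6-fold lower. The shift was -4.73 (counting SE 0.11) with a gap of 0.73, and the call held under each alternative setting.

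Other genes of retinoid handling did not show a difference of that size. Of 36 genes in this list, 1 was called lower and 1 higher, and the median shift was -0.05. The higher call was rbp2b, a cellular retinol-binding protein, at 10.05 ± 1.57, 28.1 ± 2.47 and 41.7 ± 3.74. Its far more abundant relative rbp2a was at 7457, 6181 and 6872. aldh1a2, which makes retinoic acid from retinal, was at 49.6 ± 2.77, 24.8 ± 1.604 and 30.2 ± 2.11, below the control in both banana libraries with a shift of -0.83 and a gap of 0.27. lrata, which esterifies retinol for storage, was at 6.97, 3.70 and 4.40.

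rdh10a, a retinol dehydrogenase, was low throughout, at 1.16 ± 0.441, 3.26 ± 0.667 and 2.99 ± 0.883, with a shift of 0.93. aldh1a2, lrata and rdh10a all missed the shift of 1 needed for a call, with gaps of 0.27, 0.20 and 0.10. bco1, which cleaves beta-carotene into retinal, was at 90.1, 63.2 and 80.2, and bco1l, a near neighbour of it on chromosome 7, at 85.5, 119 and 68.5. scarb1, a scavenger receptor through which carotenoids and lipids enter cells, was at 57.2 ± 3.39, 92.7 ± 4.22 and 34.9 ± 3.08, so that the control lay between the banana libraries. stra6, a retinol transporter, and dhrs3a, a retinal reductase, had shifts of -0.12 each. rbp4, the retinol carrier of blood plasma, was at 666, 812 and 1444, and it is also on the liver marker list.

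Lipoprotein genes were called in both directions. Of 23 such genes, 5 were called lower and 6 higher, 47.8% against 3.07% of all genes, and 13 had a negative shift and 10 a positive one. The median shift of this list was -0.46 (-0.66 to -0.29 over the alternatives) and its median gap 0.36, and 20 of 23 members had a shift larger than their gap. apoa4a (chromosome 19, 10845953 to 10850834), an apolipoprotein A-IV of enterocytes, was at 709 ± 32.3, 106 ± 6.58 and 108 ± 7.66. The banana libraries were nearly level with each other, with a gap of 0.03, and lay 6.65-fold and 6.52-fold below the control.

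A stretch of chromosome 16 held 3 more of the lower apolipoprotein genes, between 23921610 and 23963461, where 5 genes were compared. apoa4b.3 (listed as BX004983.1 in the files) was at 2229.9 ± 95.5, 695 ± 31.6 and 512 ± 25.5. apoa4b.2 was at 7922 ± 224, 2743 ± 80.1 and 2522 ± 77.0, and apoeb, an apolipoprotein E, at 1559 ± 48.8, 499.8 ± 18.7 and 295 ± 12.4. In each of these 3 genes the control stood clear above both banana libraries. The neighbouring apoa4b.1 was at 1648 ± 67.0, 1177 ± 50.2 and 1226 ± 51.6, a shift of -0.46 that is under the call. Members of the apoa4b group are close copies that can share reads, so their separate values are uncertain.

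Just beyond this stretch the direction turned. apoc4 (23975930 to 23977525) was at 35.4 ± 4.47, 114 ± 8.45 and 122 ± 10.34, and apoa2 (23978978 to 23980354) at 2271 ± 93.8, 5271 ± 209 and 9358 ± 373, both called higher. The next gene, apoc2, a cofactor of lipoprotein lipase, was at 1470.3 ± 64.8, 678 ± 31.7 and 805 ± 38.9, with a shift of -0.99 just short of a call. The other lipoprotein genes called higher were apom, apoa1b, apoba and apobb.2, with shifts between 1.24 and 2.02. apoa2, apoa1b, apoba and apobb.2 were lost when the shift had to be at least 2 times the gap. Of the 6 genes called higher, apoc4, apoa2 and apom are also on the liver marker list, whose median shift was 1.34, and the part of liver RNA in these calls was not tested.

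sar1b, the small GTPase that chylomicrons need to leave the endoplasmic reticulum, was called lower at 99.2 ± 3.37, 39.1 ± 1.97 and 48.8 ± 2.76. mttp, which loads lipid onto apolipoprotein B, was at 228 ± 9.12, 123 ± 5.24 and 149 ± 6.62, with a shift of -0.75. apobb.1, the abundant apolipoprotein B gene of this tissue, was at 503, 307 and 410.1. apoea stood at 12162, 6429.9 and 7209.9, and apoa1a at 11219, 7325 and 7079. These last 4 genes were below the control in both banana libraries without reaching a shift of 1.

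Of 41 genes of lipid uptake and triglyceride assembly, 3 were called lower and 4 higher, at a median shift of -0.05. The share called was 17.1% against 3.07% of all genes. fabp1b.1, a fatty acid-binding protein and one of the most abundant transcripts here, was at 11555 ± 99.7, 5615 ± 65.6 and 4657 ± 74.0. The other lower calls were abcg5, a partner in the sterol exporter pair, at 42.7, 22.1 and 17.9, and acsl1b, an acyl-CoA synthetase, at 16.3, 5.49 and 10.04. In this list 22 genes had a negative shift and 19 a positive one. Among genes of triglyceride resynthesis that were not called, mogat2 was at 129, 84.7 and 87.4, acsl5 at 117, 70.7 and 70.6, and dgat1a at 94.1, 70.4 and 47.1. plin2, a lipid droplet coat protein, was at 39.0, 26.4 and 17.7.

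The higher calls of that list were low or moderate in level. mogat3a went from 2.503 ± 0.930 in the control to 6.24 ± 1.38 and 12.34, soat2, which esterifies cholesterol, from 0.132 ± 0.203 to 1.53 ± 0.406 and 2.21 ± 0.608, and slc27a1b from 3.45 to 6.38 and 11.2. fabp3 was at 163, 283 and 395. Taking both lipid lists together, 24 of 64 genes had 100 FPKM or more in the control. Of these 24, 19 had a negative shift, 6 were called lower and 3 higher, and the median shift was -0.66 with a median gap of 0.27. Among all 889 genes at that control level, 56.9% had a negative shift, 2.14% were called lower and the median shift was -0.08. Choosing genes by a high control level favours negative shifts, which is why the share over all such genes is given.

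**Figure D2:**
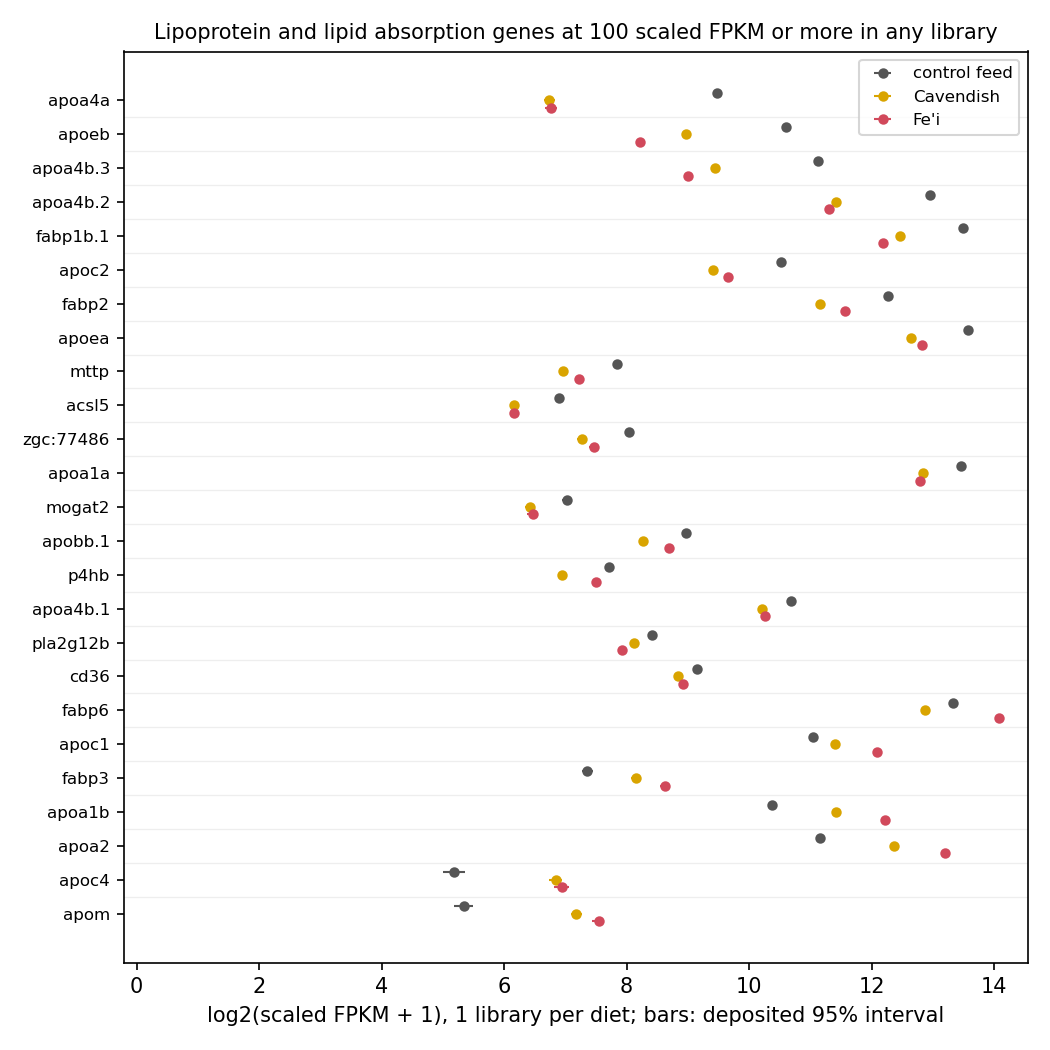
Levels of the lipoprotein and lipid absorption genes that reach 100 scaled FPKM in any library, in log2(scaled FPKM + 1), ordered by shift; points are single libraries and bars the deposited 95% interval. From apoa4a down to cd36 the control point lies to the right of both banana points, and from apoc1 down to apom it lies to the left.

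Lipid and sugar metabolism beyond absorption held a few large shared calls. thrsp, a regulator of fatty acid synthesis on an unplaced scaffold, was at 0.236 ± 0.472 scaled FPKM in the control, about the level of a single fragment, against 35.9 ± 5.55 and 28.4 ± 6.06 in the Cavendish and Fe'i libraries. The groups were far apart and the banana libraries overlapped each other. me1, cytosolic malic enzyme, which makes NADPH for fatty acid synthesis, was at 50.1 ± 3.22, 8.47 ± 1.02 and 10.9 ± 1.43, with a shift of -2.27. These were the only 2 calls among 27 fatty acid synthesis genes, whose median shift was -0.14. acacb, an acetyl-CoA carboxylase, was at 11.04 ± 0.703, 5.49 ± 0.421 and 6.25 ± 0.541, without a call.

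pck1, the committed step of gluconeogenesis, was called lower, but its banana libraries differed: 473 ± 20.3 in the control, 258 ± 11.3 with Cavendish and 111 ± 6.17 with Fe'i, a gap of 1.21 against a shift of -1.47. It was lost when the shift had to be at least 2 times the gap, and when each banana library had to differ from the control by 1 or more. g6pca.2, a glucose-6-phosphatase, was at 269.8, 188 and 171. No gene of 45 in sugar uptake and glycolysis was called, which is near the 3.07% of all genes. Between the banana libraries, 12 of the 45 differed by 1 or more with intervals apart, against 8.71% of all genes. ldhbb, a lactate dehydrogenase, was at 37.3, 63.9 and 216, a shift of 1.63 with a gap of 1.74. ucp1, a mitochondrial uncoupling protein, was called higher at 330.3 ± 14.7, 717 ± 29.5 and 866 ± 37.1. It was the only call among 41 fatty acid oxidation genes, 2.44% and so near the 3.07% of all genes.

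In the bile acid list of 17 genes, 1 was called lower and 3 higher, 23.5% against 3.07% of all genes. nr0b2b, a homologue of mammalian SHP, a corepressor that bile acid signalling induces, was at 9.22 ± 2.01 with control feed, 0.664 ± 0.502 with Cavendish and 0.293 ± 0.415 with Fe'i. The Fe'i value is that of about 2 fragments, and the control interval lay clear of both. slc10a2, the ileal transporter that takes up bile acids, was at 88.4 ± 3.38, 186 ± 4.60 and 190.0 ± 5.77, 2.09-fold and 2.14-fold above the control with a gap of 0.03. slc51a, part of the exporter that passes bile acids on to the blood, was at 16.4 ± 1.73, 34.6 ± 2.55 and 43.5 ± 3.47. The call of slc10a2 was lost under each of the 3 other scalings, and that of slc51a when libraries were rescaled to the same sum.

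abcb11b, related to the bile salt export pump of liver, was low, at 0.881 ± 0.166, 3.15 ± 0.312 and 4.47 ± 0.459. fgf19, a hormone made by the gut in response to bile acids, was at 1.38 ± 0.676, 2.52 ± 0.810 and 10.4 ± 2.02. Its shift of 1.41 was smaller than its gap, so it was not called. fabp6, the ileal bile acid-binding protein, was at 10271, 7457 and 17303, with the control between the banana libraries.

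Xenobiotic metabolism had 9 lower and 3 higher calls of 86 genes, 13.95% called, at a median shift of -0.18. Of all genes, 0.768% were called lower and 3.07% in either direction. 4 of the 9 were neighbours on chromosome 20 between 25563105 and 25593607, where 5 genes were compared, all members of the cyp2p family of cytochrome P450 enzymes. cyp2p6 was at 52.2 ± 2.17, 25.98 ± 1.43 and 20.9 ± 1.61, and cyp2p10 at 7.56 ± 1.11, 2.84 ± 0.621 and 2.41 ± 0.706. cyp2p8 was at 15.7 ± 1.42, 4.86 ± 0.738 and 0.339 ± 0.240, and cyp2p9 at 58.4 ± 2.39, 26.4 ± 1.496 and 7.09 ± 0.980. All 4 were below the control in both banana libraries, but in cyp2p8 and cyp2p9 the Fe'i library was lower again, with gaps of 2.13 and 1.76. The fifth, cyp2p7, had a shift of -0.86. These genes are close copies and can share reads.

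Conjugating enzymes made up most of the rest. ugt5a2, a glucuronosyltransferase, was at 61.2 ± 3.52, 24.7 ± 1.77 and 10.9 ± 1.28, ugt1b4 at 8.81 ± 1.32, 2.48 ± 0.650 and 2.07 ± 0.762, and ugt5b3 at 16.3, 4.25 and 7.84. sult3st3, a sulfotransferase, was at 89.3 ± 4.75, 13.8 ± 1.77 and 33.6 ± 3.38. In the other direction, ces2, a carboxylesterase, was at 13.2 ± 1.64, 42.0 ± 2.93 and 41.5 ± 3.42, with a gap of 0.01, and cyp2x9 at 13.9, 30.0 and 32.8.

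Glutathione and antioxidant enzymes had 4 higher calls and 0 lower of 49, and 3 of the 4 were glutathione S-transferases. gstp2 (chromosome 14, 3495542 to 3503708) had the highest shift of all named calls, 4.78. It was nearly silent in the control, at 0.330 ± 0.330 or about 4 fragments, against 24.8 ± 2.69 with Cavendish and 50.8 ± 4.79 with Fe'i. gstt1a was at 21.2 ± 2.51, 63.2 ± 4.60 and 132 ± 8.72, and gstm.2 at 5.74 ± 0.950, 18.8 ± 1.62 and 13.5 ± 1.72. The fourth, sod3a, an extracellular superoxide dismutase, was at 1.58, 3.599 and 5.28, and its call was lost under each of the 3 other scalings. The list's median shift was 0.11, and 8.16% of it was called.

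Other named calls of large size belonged to no single pathway. On the lower side, pvalb9, a parvalbumin that binds calcium, was at 103 ± 7.58, 16.7 ± 2.46 and 9.55 ± 2.28. rln1, a relaxin, was at 30.8 ± 4.51, 6.23 ± 1.89 and 6.07 ± 2.29. cmah, which modifies sialic acid, was at 40.1 ± 2.66, 10.0 ± 1.05 and 10.22 ± 1.29. rln1 and cmah each had a gap of 0.03.

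afp4, annotated as an antifreeze protein gene, was among the most abundant of the lower calls, at 7962 ± 335, 1967 ± 87.3 and 2355 ± 106. A second, nearly silent gene with the same symbol was not called. aqp10a, a water and glycerol channel, was at 45.4 ± 2.73, 16.4 ± 1.53 and 16.9 ± 1.94, and lct, a lactase-like brush border enzyme that was not called, at 20.9, 9.64 and 10.9 with a shift of -0.96. igl3v2, an immunoglobulin light chain segment, was at 97.1 ± 13.7, 2.00 ± 1.964 and 4.12 ± 3.55. traj39, a T cell receptor segment, was at 5.62 ± 2.495 in the control and near 0 in both banana libraries, and bpifcl at 17.6 ± 8.72, 2.16 ± 2.19 and 2.59 ± 3.02. Antigen receptor segments are rearranged in single lymphocyte clones and share reads with their relatives, so igl3v2 and traj39 are uncertain.

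On the higher side, rnasel2, a secreted ribonuclease, was at 7.84 ± 1.51, 157 ± 6.30 and 336 ± 11.5. It lies in a run of 3 higher calls on chromosome 22, between 6273581 and 6294749, a stretch whose ends are set by the calls themselves. mia was at 38.6 ± 5.93, 243 ± 14.0 and 211 ± 16.1, with a gap of 0.21, and ggact.1, a gamma-glutamylamine cyclotransferase, at 3.70 ± 0.700, 25.1 ± 1.71 and 34.5 ± 2.497. cdab, a cytidine deaminase, was at 2.68 ± 0.921, 13.2 ± 3.45 and 21.3 ± 5.13. In these 4 genes both banana libraries stood well clear of the control.

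**Figure D3:**
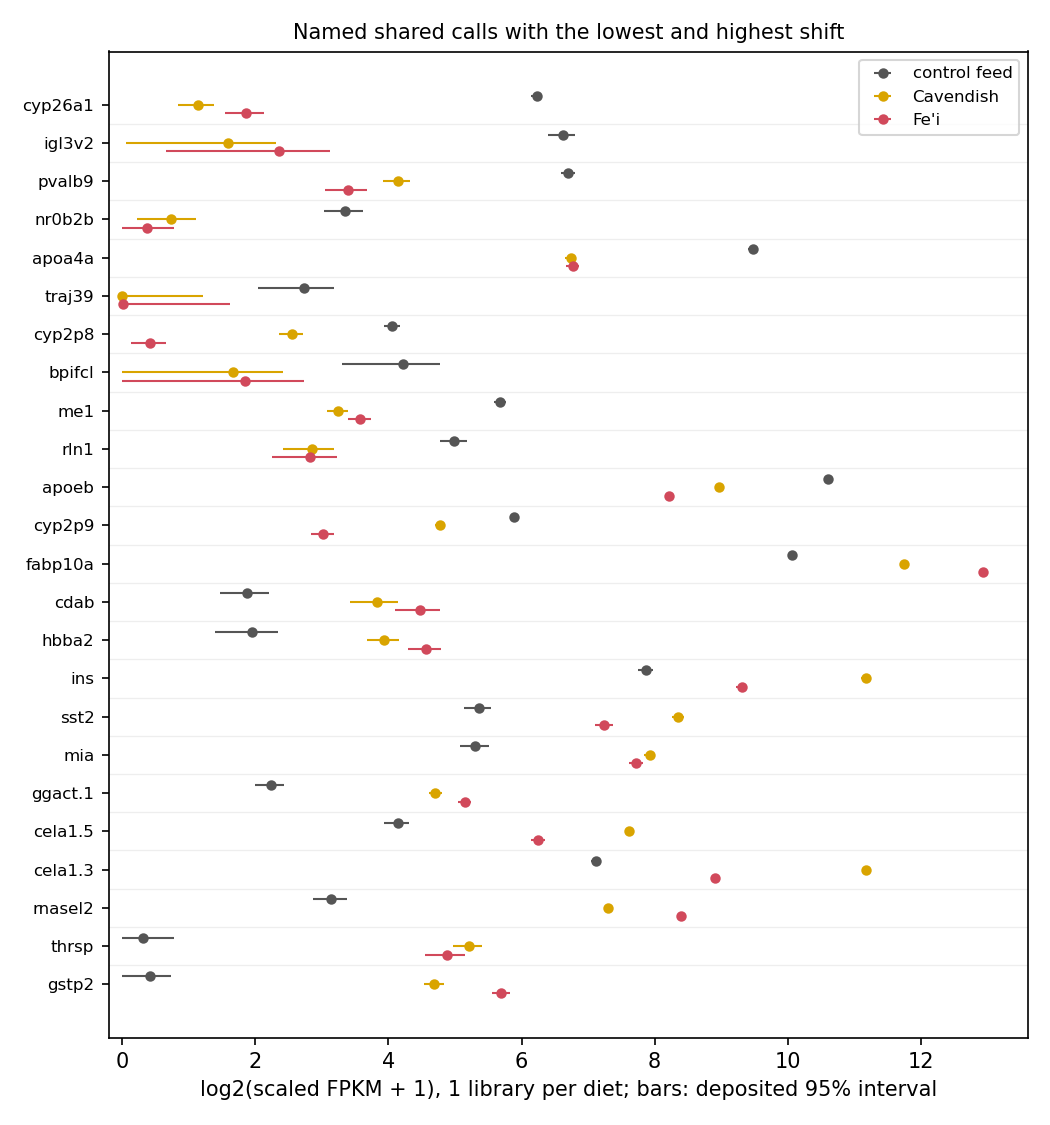
Levels of the 12 named shared calls with the lowest and the 12 with the highest shift, in log2(scaled FPKM + 1), ordered from the lowest shift at the top; points are single libraries and bars the deposited 95% interval. In cyp26a1 the control is at 74.0 scaled FPKM and both banana libraries are under 3, and in gstp2 the control is at 0.330 and both banana libraries are above 20.

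A block of the higher calls came from markers of neighbouring organs and blood. The lists for liver, endocrine and exocrine pancreas, red blood cells, egg and germ cells and skeletal muscle together hold 1.07% of the genes compared. They hold 49 of the 323 higher calls (15.2%) and 2 of the 108 lower calls. Not all 6 lists took part. Egg and germ cell markers had 0 calls of 23, and 20 of these had a gap of 1 or more with intervals apart, all higher with Fe'i. Summed over the list they stood at only 22.9, 15.1 and 136 scaled FPKM. Low genes could enter the comparison through the Fe'i library alone, so this direction is partly set by the minimum of 1 FPKM. Skeletal muscle markers had 1 higher and 1 lower call of 18, at a median shift of -0.36 and a median gap of 1.19. Liver markers had 31 higher calls of 55 genes and 1 lower, with a median shift of 1.34 (1.13 to 1.34 over the alternatives). In 45 of the 55 the order was control, then Cavendish, then Fe'i. The same order held in 2229 of all 14061 genes and in 203 of the 323 higher calls (62.8%). fabp10a, the liver fatty acid-binding protein, was at 1073 ± 35.4, 3423 ± 61.0 and 7829 ± 113 scaled FPKM in that order, tfa, transferrin, at 1674, 2994 and 5453, and itih3b, a plasma protein, at 10.5, 35.7 and 46.7. The median ratio to the control over this list was 0.76 in log2 units for Cavendish and 1.77 for Fe'i, so its members shared a direction and not a size.

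Endocrine pancreas markers had 6 higher calls of 11, at a median shift of 1.68, with the opposite order of the banana libraries. This median ranged from 0.28 to 1.83 over the alternatives. Low members could enter the comparison through the 1 library where they are high. ins, insulin, was at 233 ± 17.6, 2307 ± 105 and 633 ± 38.3, and sst2, a somatostatin, at 40.03 ± 5.69, 327 ± 19.9 and 151 ± 13.8. Both glucagon genes were called, gcga at 21.6, 120.3 and 48.7 and gcgb at 25.6, 139 and 50.8. Of 30 exocrine pancreas markers 4 were called higher, among them 3 neighbouring elastase genes of chromosome 22, and 25 had a gap of 1 or more between the banana libraries with intervals apart, all higher with Cavendish. The median gap of that list, 1.57, exceeded its median shift of 0.70. Enteroendocrine markers had 4 higher calls of 31, and these were gcga, gcgb, sst1.1 and sst1.2, all of which are also islet hormones.

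Red blood cell markers had 7 higher calls of 13, at a median shift of 1.06 (0.35 to 1.39 over the alternatives) and a median gap of 0.62. A hemoglobin cluster on chromosome 3, between 55091230 and 55105966, had all 6 of its compared genes called higher. The ends of this stretch are set by its outermost calls, so uncalled genes beside it are not counted. hbaa1 was at 53.7 ± 5.27, 133 ± 7.78 and 227 ± 12.7, and hbba2 at 2.85 ± 1.22, 14.3 ± 2.56 and 22.6 ± 3.99. alas2, which starts heme synthesis in red cells, was at 0.975 ± 0.343, 3.17 ± 0.574 and 3.07 ± 0.741. Summed over the list, red cell markers took 0.0381% of all FPKM in the control, 0.058% with Cavendish and 0.088% with Fe'i. Neighbouring hemoglobin genes are close copies that can share reads.

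Some metabolic calls are also on these marker lists, or had the 3 libraries in the same order as most liver markers. Amino acid catabolism had 6 higher calls of 49 and 1 lower, 14.3% against 3.07% of all genes. Its higher calls include agxtb, an aminotransferase that removes glyoxylate, at 21.5, 65.6 and 160.3, bhmt, which remethylates homocysteine, at 178, 354 and 582, and hpda of tyrosine breakdown at 71.7, 155 and 292, all in the order of the liver markers. That order held in 45 of the 55 liver markers and in 203 of all 323 higher calls (62.8%), a count that includes liver markers. amt, of the glycine cleavage system, was the lower call, at 39.1, 16.6 and 20.3. In the insulin and IGF list, igf1 was at 1.71 ± 0.598, 6.46 ± 1.08 and 11.66 ± 1.81 and igf2a at 6.00, 10.9 and 19.7, again in that order. igfbp1a, an IGF-binding protein also on the liver list, was at 19.6 ± 1.83, 79.7 ± 4.49 and 43.6 ± 3.37, and eif4ebp3, a brake on translation, at 30.4 ± 3.29, 114 ± 7.15 and 65.8 ± 5.89. In these 2 genes Cavendish was above Fe'i, while 51 of the 55 liver markers were higher with Fe'i than with Cavendish. The part of liver and islet RNA in these calls was not tested.

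**Figure D4:**
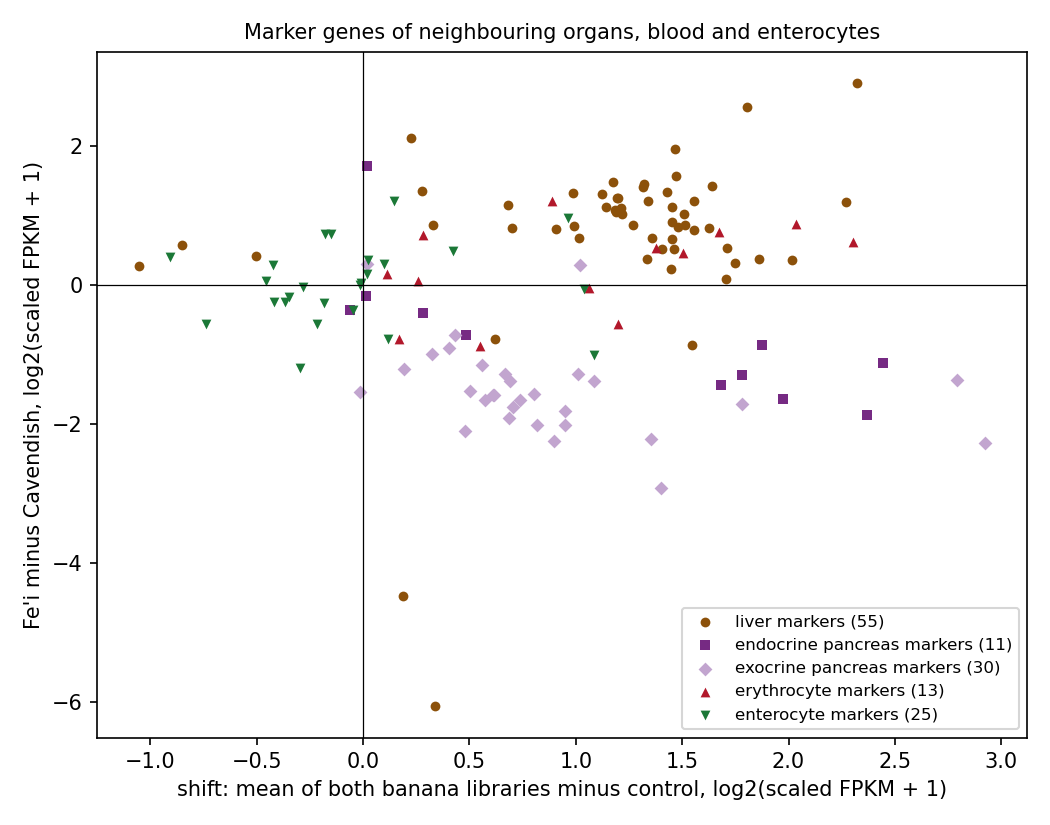
Shift (horizontal) against Fe'i minus Cavendish (vertical) for the measured markers of liver, pancreas, red blood cells and enterocytes, all in log2(scaled FPKM + 1), 1 point per gene. Liver markers lie mostly right of 0 and above it (51 of 55 higher with Fe'i than with Cavendish), pancreas markers mostly right of 0 and below it, and enterocyte markers around 0.

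Inflammation and acute phase genes had 7 higher calls of 51 and 0 lower, 13.7% against 3.07% of all genes, at a median shift of 0.66 and a median gap of 0.73. The median log2 ratio to the control was 0.95 with Cavendish and 0.03 with Fe'i, so the list's shift is mostly the value of the Cavendish library. Between the banana libraries, 19 of the 51 differed by 1 or more with intervals apart, against 8.71% of all genes. Of these 19, 18 were higher with Cavendish. il13, a cytokine of type 2 immunity, was at 0.640 ± 0.453, 29.0 ± 2.84 and 4.21 ± 1.35, and the chemokine cxcl18b at 5.41 ± 1.15, 40.7 ± 2.93 and 12.33 ± 2.00. In both, Cavendish lay well above Fe'i. Both calls were lost when the shift had to be at least 2 times the gap, and that of il13 also with a pseudocount of 5. ccl25b, a chemokine of the gut lining, was at 24.1 ± 3.19, 69.2 ± 5.57 and 40.7 ± 4.86. crp3, a C-reactive protein, was at 67.6, 227 and 155. Other genes named crp did not share this direction. crp6, on the inflammation list, was at 35.4, 116 and 1.63, and crp7, on none of the lists, at 3.83, 56.7 and 0.287. In crp6 and crp7 the control lay between the banana libraries, with Fe'i below it, and neither was called. The part of liver RNA in the calls of this list was not tested.

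Macrophage markers had 2 lower calls of 30, 6.67% against 3.07% of all genes called. The list had no common direction: its median shift was -0.11 against a median gap of 0.75, and 11 of the 30 had a positive shift. The calls were apoeb, also a lipoprotein gene, and grn2, a granulin, which was at 1210.0 ± 53.1, 484 ± 23.7 and 443 ± 24.6. mfap4, a macrophage marker in zebrafish, was at 324 ± 16.8, 17.2 ± 2.397 and 179 ± 11.4, and its gap of 3.31 exceeded its shift of -2.51. No gene of 35 T and B lymphocyte markers was called, which is near the 3.07% of all genes. blnk, an adaptor of B cell receptor signalling on that list, was at 3.22 ± 0.761, 91.0 ± 252 and 113 ± 314, where the banana intervals are wider than the values themselves. mhc2dab, an MHC class II chain on another list, was called higher at 40.3, 292 and 97.0, with a shift of 2.03 and a gap of 1.58. The call was lost when the shift had to be at least 2 times the gap. This gene differs between fish and shares reads with its relatives.

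Of 33 clock genes, 2 were called lower and 0 higher, 6.06%. Of all genes, 0.768% were called lower and 3.07% in either direction. nr1d1, a REV-ERB repressor of the clock, was at 6.80 ± 0.723, 1.55 ± 0.319 and 2.302 ± 0.491, and ciarta, another clock repressor, at 7.17 ± 0.787, 1.76 ± 0.360 and 3.08 ± 0.595. Both calls were lost with a pseudocount of 5. Of genes not called, chosen after their values were seen, nr1d2a was at 50.8 ± 2.73, 31.6 ± 1.85 and 32.0 ± 2.27. The transcription factor hlfa was at 16.0, 10.25 and 8.38, and its relative tefa at 20.7, 14.5 and 13.3. The list's median shift was -0.10 against a median gap of 0.22, and 10 of its 33 genes had a positive shift. The sources used here do not give the time of day at sampling.

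Nuclear-encoded genes of the respiratory chain had a median shift of -0.24 and a median gap of 0.12. Of 69 genes, 65 had a negative shift and 47 a shift larger than their gap, against 46.2% and 43.2% of all genes, and none was called. atp5mc1, a subunit of ATP synthase, was at 691 ± 15.5, 485 ± 12.05 and 492 ± 15.0, and ndufb2, of complex I, at 165 ± 11.8, 112 ± 8.53 and 105 ± 9.48. All 38 proteasome genes had a negative shift, with a median of -0.27, a median gap of 0.23 and no call. The banana libraries were not level in this list: the median log2 ratio to the control was -0.17 with Cavendish and -0.42 with Fe'i, and 7 of the 38 genes were higher with Fe'i than with Cavendish. Both medians stayed negative under each alternative, between -0.45 and -0.24 for the respiratory chain and between -0.47 and -0.25 for the proteasome. The other scalings lower shifts in general, so they could hardly have turned these medians positive. Cytosolic ribosomal proteins had a median of 0.17, which turned to -0.04 when libraries were rescaled to the same sum. Mitochondrially encoded genes went the other way from the nuclear-encoded ones: 12 of 13 had a positive shift. Their median was 0.20 (-0.01 with libraries rescaled to the same sum) with a median gap of 0.58, and all 13 were higher with Fe'i than with Cavendish. In this list mt-nd3 was the only call, higher at 1638 ± 90.3, 2814 ± 139 and 4425 ± 216.

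Of the 51 lists, 6 had a median shift larger in size than their median gap with the main settings. Endocrine pancreas, liver and red blood cells were on the higher side. The nuclear-encoded respiratory chain, proteasome and lipoproteins were on the lower side. Cholesterol synthesis was not among the 6, with a median shift of 0.61 and a median gap of 0.97. Of its 31 genes, sqlea, squalene epoxidase, was the only shared call, at 20.2, 56.1 and 32.5, which was lost under 6 alternatives, among them all 3 other scalings. In this list 12 genes had a gap of 1 or more with intervals apart, all higher with Cavendish. hmgcra, the rate-limiting reductase, was at 19.3 ± 1.303, 93.9 ± 4.34 and 25.1 ± 1.72. Markers of lysosome-rich enterocytes, which digest absorbed protein, had a median shift of 0.37 and a median gap of 1.00, and all 29 were higher with Fe'i than with Cavendish. A shift in such lists is mostly the value of one banana library.

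**Figure D5:**
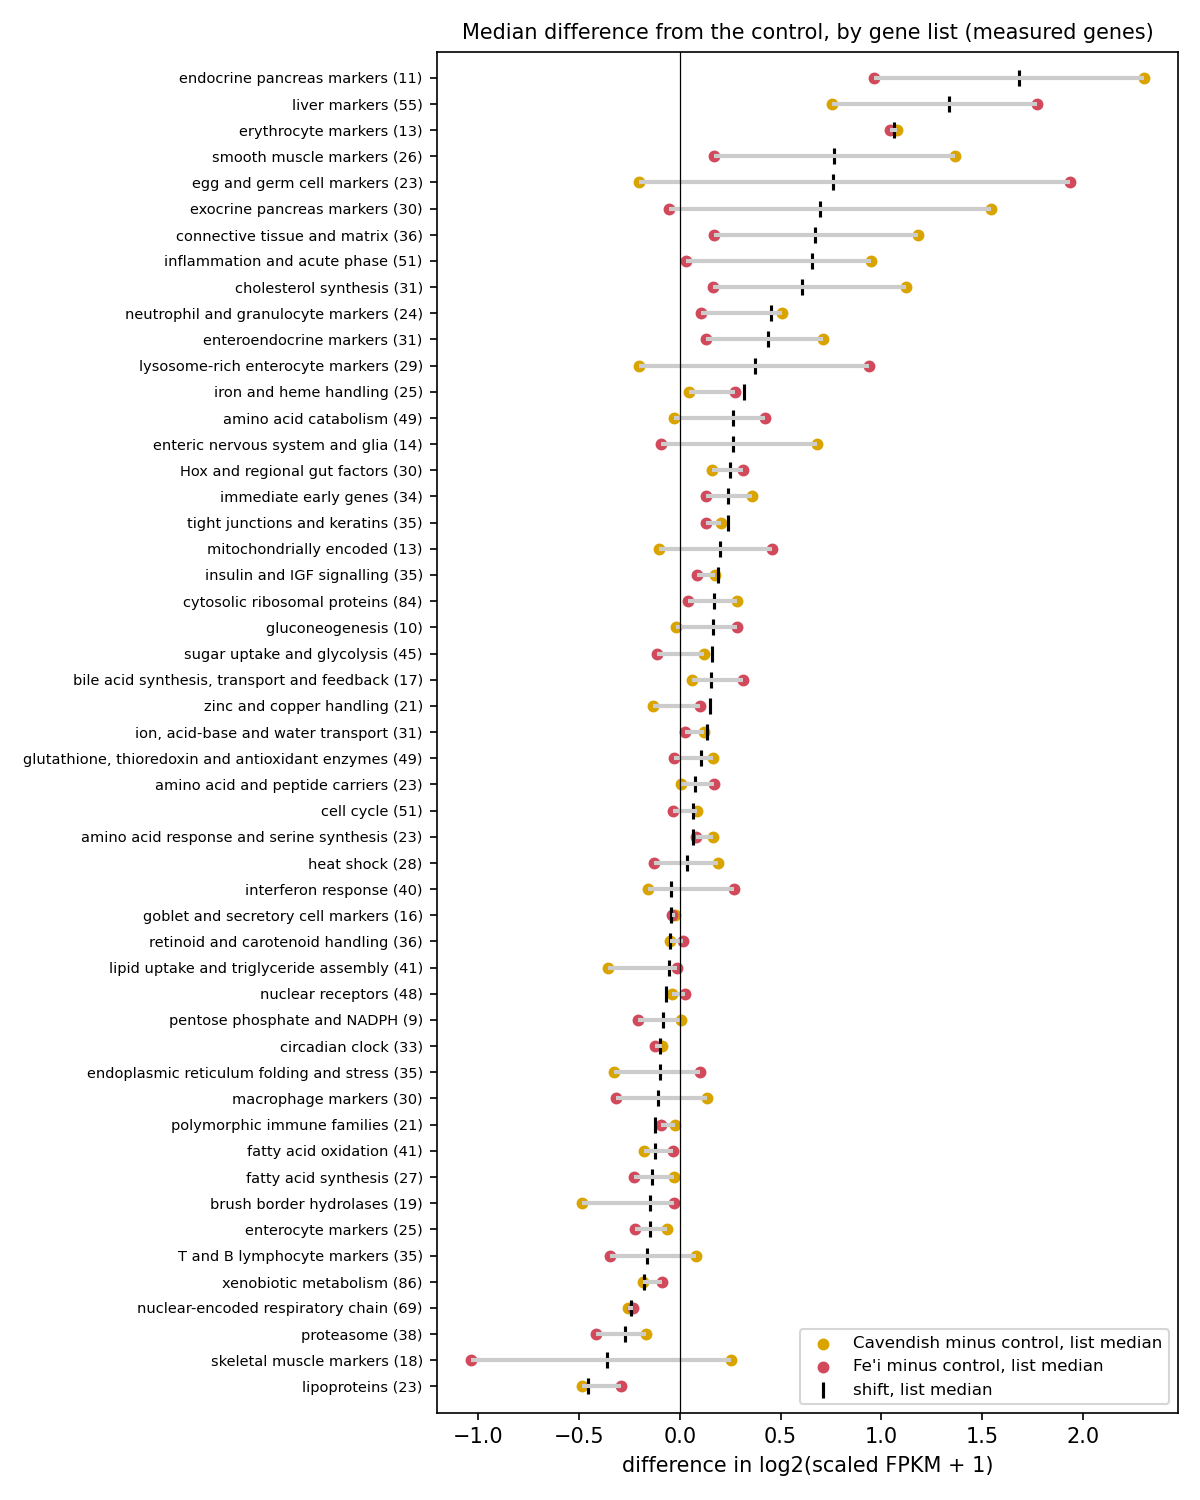
Median difference from the control in log2(scaled FPKM + 1) for each gene list, with the number of measured genes in brackets; yellow and red points are the Cavendish and Fe'i medians and the black tick the median shift. The points lie close together for the nuclear-encoded respiratory chain and red blood cells and far apart for exocrine pancreas and egg markers. Both ratios share the control library.

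Of the 323 higher calls, 84 (26.01%) had another higher call within 100 kb, in 33 groups, as did 33 of the 108 lower calls (30.6%), in 13 groups. Of the compared genes that were not called in the same direction, 8.17% lay within 100 kb of a higher call and 3.29% within 100 kb of a lower call. The stretches given for such groups run from the first to the last called gene, so uncalled genes beside them are left out. Most of the larger groups were gene families. Among them were 4 complement C3 genes of chromosome 1 and 4 genes of the coagulation factor family near its start. On the lower side, arf4b stood with 2 ARF5 copies on chromosome 11. On chromosome 19, illr4, a lectin-like receptor, was called lower at 17.5, 10.11 and 4.98 and grn2 lies near it. Between families of close copies, reads can be assigned to the wrong member.

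The rest of the calls are less well described. Of the higher calls 102 and of the lower calls 45 carry clone or placeholder names, and 222 and 80 fall in none of the lists. The most negative shift of all, -7.25, belonged to a gene with such a name on chromosome 9, at 172 ± 10.8 in the control, 0.298 ± 0.422 with Cavendish and listed at 0 with Fe'i. Of the higher calls, 7 were listed at 0 in the control. Near the thresholds, si:dkey-16l2.20 was just inside the shift of 1 at 3.00, 8.28 and 5.92 scaled FPKM, and ankrd50l just outside at 2.76, 6.02 and 7.05. On the lower side a gene named ftr90 was just inside at 1.41, 0.435 and listed at 0, and apela just outside at 1.83, 0.508 and 0.337. Another gene with the symbol ftr90 was called higher.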

How the data were processed

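Per the submitters' processing notes, FastQC 0.11.5 and TopHat2 2.1.0 were used and the build was GRCz11. The authors deposited FPKM with 95% intervals and a status from Cufflinks, per the file headers; the sources used here do not give its version. Rows were summed by identifier (32661 rows, 32519 identifiers), and 9 rows whose status was not OK were left out. Among these were the yolk protein genes vtg1, vtg4, vtg5, vtg6 and vtg7, which therefore enter no count or share of FPKM here. Libraries were divided by median-ratio factors (1.06, 0.969 and 0.965 for control, Cavendish and Fe'i). Differences are of log2(scaled FPKM + 1), which understates changes of low genes, and folds are these differences on a linear scale. Effective fragments are the squared ratio of FPKM to its SD; for 44.6%, 44.3% and 44.4% of low genes they were whole within 0.05, so no count test was run. Intervals cover counting and read assignment within a library only, not differences between fish.

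The members and the 51 lists were chosen with earlier results of these data known. Of 2088 list symbols, 1887 matched the files and 50 more matched through the reference tables. Genes named are the 12 highest and 12 lowest shifts among named shared calls that reach 5 FPKM, up to 4 calls per list, up to 2 members of lists without a call, and 20 fixed genes. All others were named after their values were seen. Alternatives were other scalings, pseudocounts of 0.1 and 5, minimums of 0 and 5 FPKM, and other forms of the rule. The code of the rule was tried on simulated counts that hold counting noise only, so this says nothing about differences between fish or dissections. Python 3.11.15, pandas 2.3.3, NumPy 2.4.6 and matplotlib 3.10.9 were used.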

Additional observations from a re-analysis of the deposited data

Results flagged for a closer look

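cyp7a1, which starts the making of bile acids in liver, lay on opposite sides of the control in the banana libraries. It was at 34.3 ± 2.01 scaled FPKM in the control, 364 ± 6.14 with Cavendish and 4.46 ± 0.839 with Fe'i, a Fe'i minus Cavendish difference of -6.06 in log2 units. Its shift of 0.34 therefore describes neither diet. The difference rests on 1 library per diet and was not tested. In all, 19 of the 14061 genes differed from the control by 1 or more in opposite directions, with both banana intervals apart from the control's. Of these, 8 were higher with Cavendish and 11 higher with Fe'i.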

How the results depend on the processing

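The 323 higher and 108 lower calls became 205 and 202 with libraries rescaled to the same sum, 136 and 50 with a pseudocount of 5, and 177 and 70 when each banana library had to differ from the control by 1 or more, without the gap. With a shift of at least 2 times the gap, 186 were higher. The 1225 genes called between the banana libraries became 502 with a pseudocount of 5 and 807 with a minimum of 5 FPKM. Every other count of calls stayed within 1.5 times its main value. The lower calls were kept whole under all 3 other scalings. Each of these lowered the median shift of all genes, from 0.03 to -0.08, -0.13 and -0.04. That favours keeping lower calls and losing higher ones, so the lower calls were hardly put to a test. With the FPKM as deposited, 240 of the higher calls were kept and 159 genes were lower. Of the 65 higher and 22 lower calls that the naming rule picked, 16 higher and 0 lower were lost with libraries rescaled to the same sum, and 31 and 5 with a shift of at least 2 times the gap. Among calls with values in the text, fabp3, slc10a2, sod3a, sqlea and si:dkey-16l2.20 were lost under all 3 other scalings. Under 2 of them slc27a1b, alas2, cyp2x9, ccl25b and mt-nd3 were lost, and under 1 igf2a and slc51a. No called value changed sign. The cause of these changes was not tested. Low values limit the control side: genes such as thrsp and gstp2 rest on a few fragments there, so their shift depends on the pseudocount. No paired analysis was possible because each diet has 1 library. No library could be left out, since each shift needs all 3.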
